A study of Homo sapiens with 13 samples.

Results

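Messenger RNA was compared between HEK293T cells given an siRNA against G9a and the same cells given a control siRNA, 72 h after transfection, on 2 Agilent 2-colour arrays, which are 2 of the 13 arrays in the series. The arrays were chosen by their titles, and each holds a separate replicate with the G9a siRNA RNA in Cy5 and the control siRNA RNA in Cy3. HEK293T, an established line of human embryonic kidney origin, expresses large T antigen of SV40, and siRNAs were delivered with the lipid reagent DharmaFECT 4. For comparison the text uses 4 arrays of an siRNA against WIZ with control siRNA (72 h, 2 replicates, each in both dye orientations) and 7 arrays of UNC0638 at 1 µM with DMSO (48 h, 5 replicates, 2 of them in both orientations). The labels call the replicates biological without saying what was separate between them, and do not say whether both siRNA treatments shared control RNA. With bulk RNA, fewer cells of a kind and less RNA per cell cannot be told apart.

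G9a, encoded by EHMT2, adds 1 or 2 methyl groups to histone H3 at lysine 9 and works as a dimer with the related enzyme GLP, encoded by EHMT1. WIZ is a zinc finger protein that binds the dimer, and UNC0638 blocks the active site of both enzymes. The marks are known for keeping genes silent.

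The sequences that carry the result are given first. A single probe reads EHMT2, on the minus strand of chr6:31848474-31848533 (build 37.1 of the array files). The probes of the largest falls and rises are set beside it. EHMT2 is shown whole (60 bases) and each of the other probes as a stretch of 30 bases, with the coordinates of the whole probe, and capitals mark the 20 consecutive bases richest in G and C. The first line is EHMT2, the next 4 are the largest falls and the last 4 the largest rises by the ranking given below.
EHMT2 (chr6:31848474-31848533): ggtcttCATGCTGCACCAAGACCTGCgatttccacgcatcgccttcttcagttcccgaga
LBX1 (chr10:102986759-102986818): GGCCTCCGCCGCCCCGGAAGccctcgccga
C18orf23 (chr18:43914943-43915002): tcaCCCCGCCCCCCGCAACTGCCtttgtat
LINC02907 (chr9:138236188-138236247): ttAAGGGAGCCGCCACCGCCCCaatggggt
PRR36 (chr19:7934627-7934686): GCCCCCCGACGCAGAGCTCGccgcttgcca
DYNC1LI2 (chr16:66755800-66755859): tagatGCCAAACAGCTTGTGGCCTCactaa
CLIC4 (chr1:25170053-25170112): cttCCCTTTTTTGATGTAGATGCagatatt
CPEB4 (chr5:173386991-173387050): taattGTACTACTTGGCTGAATTTCcatat
MSMO1 (chr4:166263190-166263249): GTCTTCTGGCTACTAAGTGAtaaaaagaac
The capitals hold 85%, 85%, 80% and 80% G and C in the probes of the 4 falls, and 60%, 40%, 40% and 45% in those of the 4 rises. Those of EHMT2 hold 60%.

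EHMT2 RNA was lower on both G9a siRNA arrays. Its log2 ratio of treated over control RNA was -1.67 on the first array and -1.65 on the second, from raw intensities of 1052 against 3435 and of 760 against 3331. The mean of -1.66 ± 0.01 (SD, n = 2) left 31.6% of the control level, without correction for dye or probe GC content. Its standard error from the fit was 0.13 and its adjusted p 0.0023 (limma with Benjamini-Hochberg adjustment). On every array of the other treatments the ratio was higher, between -0.56 and 1.23. Under WIZ siRNA it read 1.23 and 0.73 with treated RNA in Cy3, but -0.56 and -0.17 in Cy5, the dye of both G9a siRNA samples. The swapped UNC0638 replicates read 0.09 and -0.32 in Cy3, and 0.16 and -0.04 in Cy5. The dye effect at this probe was -0.29 over the swapped pairs, in the direction of the fall. In every one of the 4 fits defined below EHMT2 fell, by 1.66 without correction, by 1.38 with a term for the dye, by 1.23 with the trend over probe GC content removed and by 1.11 with both.

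The partners of G9a did not pass the test. The brightest EHMT1 probe read 0.26 on both arrays (adjusted p = 0.14, limma), while its other 4 probes had means from -0.63 to -0.01, so no direction is given for EHMT1. The WIZ probe read 0.12 and 0.05 (adjusted p = 0.76, limma), against -2.12 as the mean under its own siRNA. Under UNC0638, which acts on the protein, EHMT2 RNA averaged -0.13 without replicate 3 and -0.36 on replicate 3.

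Across all genes, 28143 features were tested, each the brightest probe of a gene or a probe with no gene symbol. At an adjusted p under 0.05, 4315 rose (15.3% of those tested) and 5241 fell (18.6%), and 1227 of these (4.36%) changed at least 2-fold, 325 up (1.15%) and 902 down (3.21%). Since the treated RNA was in Cy5 on both arrays, dye and treatment cannot be told apart within them, and the swapped arrays of the other treatments supplied the estimate of the dye effect. With a dye term 2107 rose (7.49%) and 2346 fell (8.34%), and with the GC trend described below removed as well 1559 rose (11.6%) and 1354 fell (10.1%) of 13458 with a probe sequence. The split between directions moved with the scaling: centring each array on its median in place of loess gave 2872 rises and 6545 falls. The log2 ratios of both arrays correlated with r = 0.92 over the 28143 features, which share the dye orientation and the array set.

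Much of the pattern also appeared on an array of another treatment. UNC0638 replicate 3 correlated with the G9a siRNA arrays with r = 0.88 and 0.84 over the same features, UNC0638 replicate 4 with 0.50 and 0.50, UNC0638 replicate 5 with 0.18 and 0.20 and the WIZ siRNA replicates with -0.18 to -0.19. The dye effect correlated with 0.36 and 0.37. The 5 arrays of G9a siRNA and UNC0638 replicates 3 to 5 form a set of their own by background noise, so G9a siRNA lies wholly in 1 set. With that set as a covariate no feature was called by limma, though 4553 had an unadjusted p under 0.05. Without the second G9a siRNA array the limma count was 0 as well, with 7121 at an unadjusted p under 0.05, and without the first it was 6040.

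**Figure D1:**
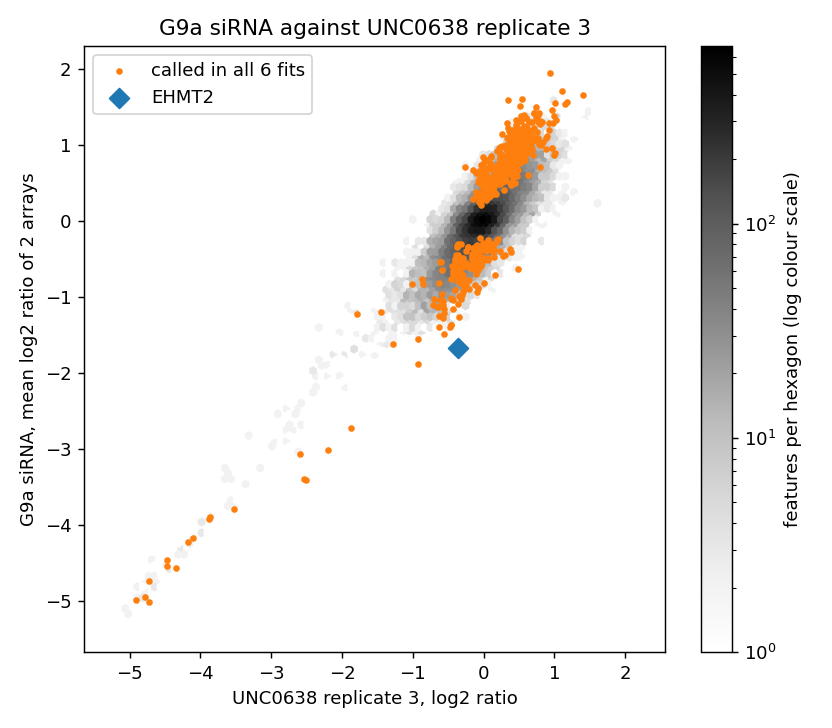
Mean log2 ratio under G9a siRNA (vertical axis) against the log2 ratio of UNC0638 replicate 3 (horizontal axis) for 28143 features, shown as hexagons shaded by count on a log colour scale. Orange points are the 527 features called in all 6 fits, and the blue diamond is EHMT2, at -1.66 against -0.36, away from the diagonal band that runs down to about -5 on both axes.

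The log2 ratio followed the GC content of the probe. Among the 13458 features whose probe sequence is in the array files, those with 35% to 40% GC had medians of 0.19 and 0.26 on the 2 G9a siRNA arrays (3969 features), and those with 55% to 60% had medians of -0.35 and -0.48 (1538 features). The 17 features with 75% to 80% GC had medians of -2.71 and -3.67. UNC0638 replicate 3 had the same order, with 0.19, -0.24 and -3.07, and the dye effect a smaller one, with 0.08, -0.16 and -0.26. The trend also ran between probes of 1 gene. In 441 genes with 2 probes at least 10 percentage points apart, the richer probe minus the poorer had a median of -0.22 and -0.29, and the richer was lower on both arrays in 282 genes (63.9%) and higher on both in 97. After the trend was removed these median differences were 0.11 and 0.19.

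**Figure D2:**
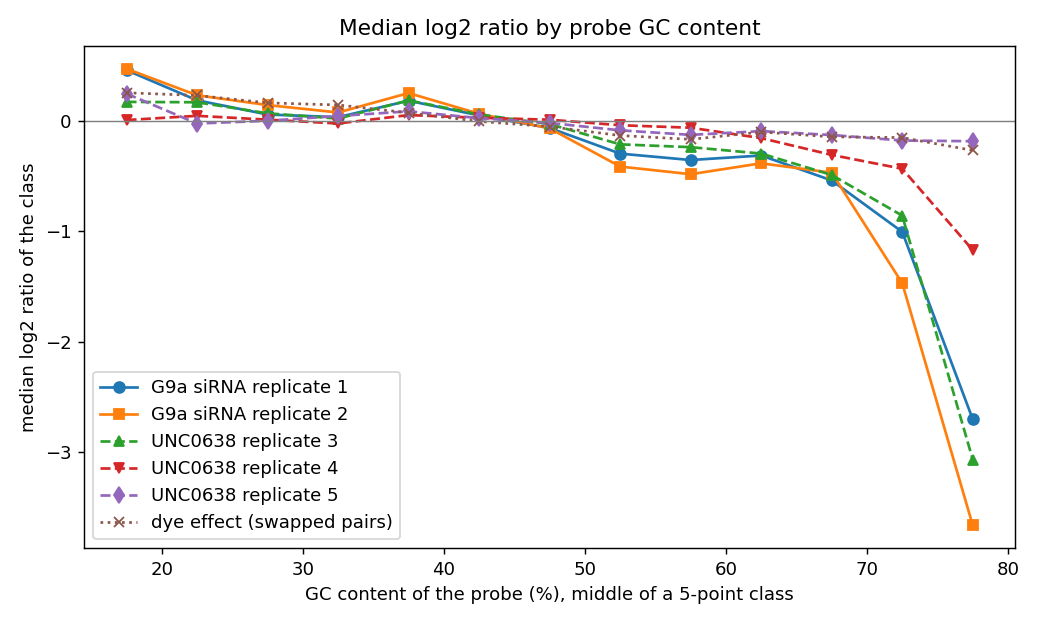
Median log2 ratio (vertical axis) of the features in each class of 5 percentage points of probe GC content (horizontal axis), for classes of at least 10 features. The G9a siRNA lines (circles, squares) fall from 0.19 and 0.26 at 35% to 40% GC to -2.71 and -3.67 at 75% to 80%, and UNC0638 replicate 3 (triangles) falls to -3.07 there, while the dye effect (crosses) reaches -0.26.

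The deepest falls belonged to a group of bright probes. On both G9a siRNA arrays 229 features were at least 4-fold lower, and none was 4-fold higher on both. Of the 229, 221 were at least 4-fold lower on UNC0638 replicate 3 as well, with a median of -3.67. Their median raw intensity in control RNA was 14690 and 28117 on the 2 arrays, against 1259 and 1175 in G9a siRNA RNA. Among the 45 with a sequence, 18 (40.0%) held a stretch of 20 bases with at least 85% G and C, against 0.416% of all features with a sequence. All 56 features that hold such a stretch had medians of -0.77 and -1.04. The 4 probes for 28S ribosomal RNA (RNA28SN5) read from -4.40 to -4.97 on the first array and from -4.68 to -5.43 on the second, from -4.75 to -5.26 on UNC0638 replicate 3, and from -0.68 to -1.36 on UNC0638 replicate 4. On WIZ siRNA replicate 1 they read from 0.21 to 0.48 in 1 dye orientation and from -0.10 to 0.13 in the other. The part of probe composition and of the array set in these falls was not tested.

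To separate features that do not rest on 1 correction, a change was counted as held where limma called it with the same sign in 4 fits (no correction, dye term, GC trend removed, and both) and both arrays had that sign before and after GC removal. Of 13458 features that could enter all 4 fits, 1176 rises (8.74%) and 911 falls (6.77%) held, 161 of them by at least 2-fold in each fit (55 up, 0.409%, and 106 down, 0.788%). The held rises had a median probe GC of 40.0% and the held falls of 45.0%, against 43.3% for all 13458. Of the rises, 1144 (97.3%) had the same sign on UNC0638 replicate 3, and of the falls 873 (95.8%), against 79.4% of all 13458.

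The largest held rises were DYNC1LI2, a dynein light intermediate chain; CLIC4, a chloride intracellular channel family protein; CPEB4, which binds cytoplasmic polyadenylation elements in mRNA; MSMO1, a methyl sterol oxidase of cholesterol synthesis; and TAF9B, a TFIID subunit. Next came TBL1XR1, SCAI, ARF6, FMNL2, EGR1, C1GALT1C1, PRRG1, SLC30A9, TMEM245 and SAMD5. CPEB4 read 1.44 and 2.45 (mean 1.95 ± 0.71, SD, n = 2; adjusted p = 0.0028, limma), a 3.86-fold rise. CLIC4 read 1.36 and 2.34, MSMO1 1.46 and 1.96, and DYNC1LI2 1.27 and 1.82. EGR1, the immediate early transcription factor, read 1.23 and 1.91, and ARF6, a small GTPase of membrane traffic, read 1.48 and 1.85. All 15 were higher on the second array than on the first, and UNC0638 replicate 3 was above 0 for each, from 0.34 for PRRG1 to 1.54 for CLIC4. In 5 of the 7 genes with another kept probe the other probes lay below 0: DYNC1LI2 had -0.56 there, TMEM245 -0.23, PRRG1 -0.10, TBL1XR1 -0.08 and CLIC4 -0.37 and -0.13. SCAI and FMNL2 had 0.40 and 0.67 at their other probe.

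The largest held falls included LBX1, C18orf23, LINC02907, PRR36, ACBD4, ZNF467, UTS2R, COG3, FBRSL1, DUX4L4, USP6NL, RHBDL1, BHLHE23 and GALR3. LBX1, a homeobox factor of muscle and spinal cord, read -4.75 and -5.27, and GALR3, a galanin receptor, read -4.26 and -4.86. These genes lay between -3.54 and -5.27 on both arrays and between -3.88 and -4.91 on UNC0638 replicate 3, and every one belongs to the group of 229 above. Where another probe read the gene it lay far from these values: COG3, of the conserved oligomeric Golgi complex, had 0.20, USP6NL 0.50, ZNF467 -0.03 and PRR36 -2.08. ACBD4 had -0.56 there, DUX4L4 -0.38, and FBRSL1 -0.33 and -0.20. The 3 genes with the widest spread between probes were read the same way. CELSR1, a cadherin of planar polarity, ranged from -5.11 to 0.09 over 3 probes, VSX1, a retinal homeobox factor, from -4.72 to 0.08, and LINC01001 from -4.38 to 0.17. The other 2 VSX1 probes were dim, with log2 brightness of 6.28 and 6.36 against 14.2 for the low one, so their ratios near 0 do not show disagreement. In each of the 3 the lowest probe was also at -4.21 or lower on UNC0638 replicate 3.

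A further filter, added after these values were seen, took out the pattern of UNC0638 replicate 3. That replicate minus the mean of UNC0638 replicates 1, 2 and 5 was scaled by its slope on each G9a siRNA array (0.829 and 1.00) and subtracted, and UNC0638 replicate 3 was left out. Subtraction also removes any response to G9a that was special to that replicate, and adds the same share of the mean of UNC0638 replicates 1, 2 and 5 to each G9a siRNA array. The remaining log2 ratios of the 2 G9a siRNA arrays correlated with r = 0.76 over features. Multiples of the same values were subtracted from both arrays, which also share dye orientation and array set. This r therefore cannot measure how well a response to G9a siRNA repeats. With this pattern removed as well, alone and together with GC and dye, 358 rises (2.66%) and 169 falls (1.26%) were called in all 6 fits, 527 features in all (3.92%). With the pattern, GC and dye taken into account together 1008 features (7.49%) were called, 608 up (4.52%) and 400 down (2.97%).

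Among the features with 1 gene symbol EHMT2 had the largest change by its smallest value over the 6 fits, which was -1.11, and it read -1.50 with the pattern alone removed. The next falls were NXN, nucleoredoxin; ANKRD36BP1, a pseudogene; PFKL, the liver-type phosphofructokinase; PPP6R1, a regulatory subunit of protein phosphatase 6; ZNF282; NANOS1, an RNA-binding repressor of translation; and CD86, a costimulatory receptor of immune cells. NXN read -1.13 and -1.41, PPP6R1 -1.20 and -1.59, and NANOS1 -0.81 and -0.89, against -0.57, -0.47 and -0.27 on UNC0638 replicate 3. RBPMS, an RNA-binding protein, read -1.02 and -1.16 (adjusted p = 0.0023, limma) but its other 2 probes lay at -0.07 and -0.06. PFKL, CD86, PCSK1N, ANKRD36BP1 and LBX1 lay far lower before the pattern was removed (-2.61 to -5.27) than after it (-0.79 to -1.12). EXPH5, MIR1915HG, LRRC2 and ZNF783 completed the 15, LRRC2 with 0.08 at its other probe.

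The largest rises of the 6 fits were PRRG1, RC3H2, SCAI, EGR1, SYPL1, CPEB4, KLF5, GDPD1, NUP62CL, KRT222, TMEM245, ANKIB1, EIF2AK2, LRP12 and UBE3A. GDPD1, a glycerophosphodiester phosphodiesterase, had the closest pair of values, with 1.24 and 1.15 (mean 1.19 ± 0.06, SD, n = 2; adjusted p = 0.0029, limma). KLF5, a Krüppel-like transcription factor, read 0.98 and 1.68, and RC3H2, an RNA-binding ubiquitin ligase, 0.97 and 1.63, though the other 2 probes of RC3H2 lay at -0.67 and -0.16. EIF2AK2, the double-stranded RNA-activated kinase PKR, read 0.67 and 1.56 and its other probe 0.97 and 1.27. UBE3A, the ubiquitin ligase lost in Angelman syndrome, read 0.90 and 1.63.

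**Figure D3:**
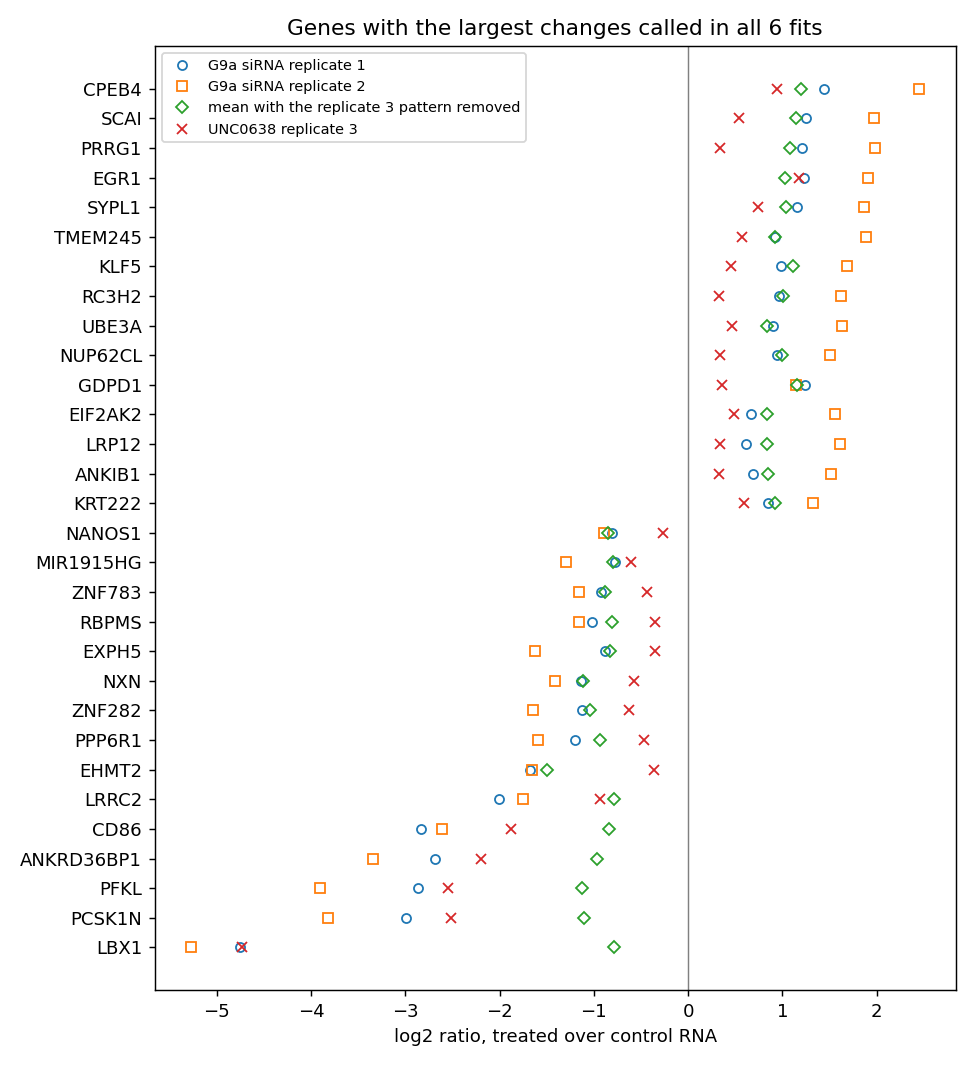
Log2 ratio of treated over control RNA (horizontal axis) for the 15 largest rises and 15 largest falls called in all 6 fits (vertical axis), on each G9a siRNA replicate (circles, squares), as the mean with the replicate 3 pattern removed (diamonds), and on UNC0638 replicate 3 (crosses). EHMT2 keeps its value with the pattern removed (-1.50), whereas LBX1 goes from -4.75 and -5.27 to -0.79.

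Other probes of the same gene gave a further reading. Of the 1176 held rises, 327 had another probe of the gene well above background in both channels of both arrays, and in 204 of these (62.4%) all such probes were above 0 on both arrays. The same held for 109 of 147 held falls (74.1%) and for 1208 of 2044 of all features with such a probe (59.1%). In the 6 fits it held for 53 of 87 rises (60.9%, near the 59.1% of all features) and 23 of 28 falls (82.1%). Among the rises were SCAI, EIF2AK2, FIGN, MDM4, DNAH14 and CMPK1, and among the falls ZNF275, ACBD4, NAT8L, FBRSL1, MXD4 and PRR36, named after their values were seen. Signs alone were compared, and sizes could differ widely. ACBD4 read -3.99 and -4.44, but -0.54 and -0.58 at its other probe. FBRSL1 read -4.33 and -4.76, but from -0.36 to -0.07 at its other 2 probes. PRR36 read -4.74 and -5.14, but -1.64 and -2.52 at its other probe. CMPK1, a nucleotide kinase, read 0.87 and 1.51, and 0.96 and 1.10 at its other probe. MXD4, a MAX-binding repressor, read -0.93 and -0.98, and -0.57 and -0.90 at its other probe. MDM4, an inhibitor of p53, read 0.71 and 1.15, and 0.21 and 0.24 at its other probe.

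Lists of genes were read against all features tested, of which 15.3% rose and 18.6% fell, with medians of -0.01 on each array. These include dim features: 19067 of 28143 were well above background in control RNA on both arrays. Bright features were called more often. In a fit of the 16078 features well above background in both channels of both arrays, 4002 rose and 4498 fell. For lists of bright genes the shares of all features are therefore too low a reference. Of all features with a sequence 8.74% held as rises and 6.77% as falls. Of the 38 measured genes of the histone H3 lysine 9 methylation machinery, 12 rose and 5 fell, and 3 rises and 2 falls held among the 33 with a sequence. The medians were 0.16 and 0.25, and 0.16 on UNC0638 replicate 3. SUV39H2, a trimethylase of the same residue, read 0.39 and 0.76 (adjusted p = 0.0052, limma) against 0.08 on UNC0638 replicate 3 and held in all 6 fits. TASOR, of the HUSH silencing complex, read 0.52 and 0.77, and KDM4D, a demethylase, -0.36 and -0.64. EHMT2 was the other held fall.

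Germline genes are known targets of G9a in other cells. Of 25 measured germline and cancer-testis genes 4 rose (16.0%, against 15.3% of all features) and none fell, with medians of 0.05 and 0.09. SYCP2, of the synaptonemal complex, was the only 1 that held (0.56 and 0.98, and 0.48 on UNC0638 replicate 3). With the replicate 3 pattern removed SYCP2 had a mean of 0.24 (adjusted p = 0.16, limma). Only 10 of the 25 were well above background in control RNA on both arrays. Of 45 neuronal genes 8 rose and 7 fell, and the 2 that held were falls, STMN3 (-1.11 and -1.29) and CPLX1 (-0.43 and -0.71), which had -1.21 and -1.32 as means under WIZ siRNA. Of 21 clustered protocadherins 1 fell and none rose, and none held. Only 6 of the 21 were well above background in control RNA on both arrays, so few changes could be seen. The fall was PCDHGA8 (-0.32 and -0.54), at a probe that lists 22 gene symbols. Among 34 imprinted genes 6 rose and 5 fell, and 3 rises and 4 falls held of 25 with a sequence. PHLDA2, a growth-restraining gene expressed from the maternal allele, read -1.23 and -1.22, CDKN1C, an inhibitor of cyclin-dependent kinases, -1.07 and -1.31, and TFPI2, a protease inhibitor, 0.50 and 0.74. PHLDA2 and CDKN1C read -1.79 and -1.45 on UNC0638 replicate 3.

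Zinc finger genes were split by place. On chromosome 19, 20 of 152 rose (13.2%) and 28 fell (18.4%), near the 15.3% and 18.6% of all features, and 2 rises and 11 falls held, with medians of -0.02 and 0.12. Elsewhere 52 of 208 rose and 44 fell, and 17 rises and 18 falls held, with medians of 0.06 and 0.10. In all 6 fits no rise and 7 falls were called on chromosome 19, and 5 rises and 8 falls elsewhere. Of all features with a sequence 2.66% were called as rises and 1.26% as falls there. With the replicate 3 pattern removed the medians were -0.20 and -0.18 on chromosome 19, and -0.10 and -0.07 elsewhere. That removal adds a share of UNC0638 replicates 1, 2 and 5, so falls under UNC0638 pass more easily. ZSCAN18 read -0.92 and -0.72, ZNF416 -0.81 and -0.51, and ZNF581 -1.12 and -1.26. ZNF302 read 0.81 and 1.36, but -0.23 at its other probe. Away from chromosome 19, ZNF282 read -1.13 and -1.64, ZNF275 -1.25 and -1.83, and ZNF205 -1.53 and -2.54.

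The lists whose medians lay farthest from 0 were those of energy metabolism and histones, and UNC0638 replicate 3 lay as far. Of 50 oxidative phosphorylation genes 2 rose (4%) and 21 fell (42%, against 18.6% of all features), and 1 rise and 11 falls held among 41 with a sequence. All 50 were well above background in control RNA on both arrays. Of the 16078 features well above background in both channels 4498 fell. In all 6 fits the 1 rise and 0 of the falls were called. The medians were -0.31 and -0.32, and -0.35 on UNC0638 replicate 3. COX4I1 and COX5A, of cytochrome c oxidase, read -1.44 and -1.91, and -1.55 and -0.97, and ATP5F1D and ATP5PF, of ATP synthase, -1.41 and -1.90, and -0.93 and -0.89. With the replicate 3 pattern removed the list had medians of 0.01 and 0.02. Of 31 replication-dependent histone genes 1 rose and 18 fell, and 4 falls held of 28 with a sequence, with medians of -0.56 and -0.88, and -0.67 on UNC0638 replicate 3. H3C2 read -2.26 and -2.98, H4C5 -2.11 and -2.41, H2AC17 -1.22 and -1.93, and H2AC4 -0.88 and -1.42. The histone probes had a median GC of 50.8%, against 43.3%, and the list's medians were -0.29 and -0.51 with the GC trend removed and 0.08 and -0.05 with the pattern removed. The part of the replicate 3 pattern in these falls was not tested.

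Cytosolic ribosomal proteins had medians whose sign moved with the corrections. Of 75 genes 15 rose and 9 fell, and 3 rises and 6 falls held of 70 with a sequence. Their medians were 0.07 and 0.06 without correction and 0.17 and 0.18 with the GC trend removed. The median of the means was -0.18 with a dye term and -0.18 with both; the dye effect itself had a median of 0.30 over these genes. RPL37A read -2.49 and -2.52 and RPS3 -1.13 and -1.11, against -2.65 and -1.12 on UNC0638 replicate 3. RPS4X read 0.59 and 0.95 and RPL37 -0.48 and -0.62, and RPL37A, RPS4X and RPL37 each had a probe of the opposite sign (0.20, -0.26 and 0.12). Of 39 translation factors 13 rose and 12 fell, and 7 rises and 2 falls held of 34. The CPEB family had 3 of the held rises: CPEB2 read 1.15 and 1.44 and CPEB3 1.25 and 1.86, beside CPEB4 above. EIF4E, the cap-binding protein, read 1.00 and 1.40, and its other 2 probes had means of 0.96 and 1.42.

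Sterol genes were divided. Of 36 genes of cholesterol synthesis and its regulation 8 rose and 9 fell, and 4 rises and 5 falls held of 30. MSMO1 was the largest rise, and SCD, a fatty acid desaturase, read 0.77 and 0.94. LSS, lanosterol synthase, read -0.99 and -1.26, and DHCR7, the last reductase of the pathway, -0.61 and -0.82. UNC0638 replicate 3 had 1.11 for MSMO1, 0.96 for SCD, -0.30 for LSS and -0.39 for DHCR7. With the replicate 3 pattern removed the G9a siRNA means of these genes were 0.68, 0.09, -0.86 and -0.39. Of 37 genes of serine synthesis and amino acid stress 5 rose and 11 fell, and no rise and 2 falls held. These were SLC7A3 (-0.72 and -0.97), a transporter of basic amino acids, and MTHFD1L (-0.35 and -0.55), of mitochondrial folate metabolism. UNC0638 replicate 3 had -0.46 for SLC7A3 and -0.07 for MTHFD1L. With the replicate 3 pattern removed their G9a siRNA means were -0.23 and -0.30. Of 35 genes of hypoxia and glycolysis 11 rose and 13 fell, and 3 of each held. ERO1A, an oxidase of the endoplasmic reticulum, read 0.81 and 1.44, BNIP3L, a mitophagy receptor, 0.40 and 1.10, and PFKFB4 -1.01 and -1.34, beside PFKL above.

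Innate immune and stress genes were mixed in direction. Interferon-stimulated genes (42 measured) counted 14 rises and 11 falls, of which 5 and 3 held among 34 with a sequence. IFIH1, the RNA sensor MDA5, read 0.76 and 1.18 against 0.96 on UNC0638 replicate 3, IFI44L read 0.72 and 0.78, and TAP1, a peptide transporter, -0.46 and -0.55. These 3 and EIF2AK2 were called in all 6 fits. Of 46 autophagy and lysosome genes 14 rose (30.4%) and 16 fell (34.8%), against 15.3% and 18.6% of all features. Of the 46, 45 were well above background in control RNA on both arrays. Of the 16078 features well above background in both channels 4002 rose and 4498 fell. In the autophagy list 6 rises and 1 fall held of 35 with a sequence. ATG14 read 0.64 and 1.30, TP53INP1 0.27 and 1.09, NBR1 0.44 and 0.68, and MCOLN1, a lysosomal channel, -1.18 and -1.42. Of 28 genes of the unfolded protein response 8 rose and 6 fell, and 2 of each held: the chaperones HSP90B1 (0.64 and 0.92) and PDIA3 (0.34 and 0.40) rose, and SYVN1 (-0.57 and -0.51) and XBP1 (-0.55 and -0.43) fell. Of 28 heat shock genes 8 rose and 6 fell, and 3 rises held, DNAJB6 (0.46 and 0.83), HSF2 (0.36 and 0.88) and DNAJB4 (0.76 and 0.97).

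Among growth genes falls outnumbered rises in the fit without correction, but not among the changes that held. Of 36 inhibitors of cyclin-dependent kinases and p53 targets 8 rose and 13 fell, and 4 rises and 2 falls held of 29. CDKN1B (p27) read 1.20 and 1.55, but -0.98 as the mean of its other probe, and CDKN2A read -0.65 and -0.93, with -1.21 at its other probe. Of 54 genes of mitosis and S phase 6 rose (11.1%) and 18 fell (33.3%), against 15.3% and 18.6% of all features. All 54 were well above background in control RNA on both arrays. Of the 16078 features well above background in both channels 4002 rose and 4498 fell, a nearer reference for this list. Its medians were -0.10 and 0.01. The 2 genes of the list that held were TYMS, thymidylate synthase (0.72 and 1.25), and E2F1 (-0.73 and -0.88). Of 29 immediate early and growth response genes 6 rose and 10 fell, and 3 of each held. Besides EGR1, DUSP6, a phosphatase of ERK, read 0.49 and 0.83 against -0.07 on UNC0638 replicate 3 and was called in all 6 fits, while KLF2 read -0.92 and -0.61 and ID3 -0.82 and -1.20. Of 32 proteasome genes 6 rose and 10 fell, and 3 rises and 1 fall held: PSMD6 (0.75 and 0.80), PSMC6 (0.57 and 0.84) and PSMD12 (0.52 and 0.73) rose and PSMA7 (-0.77 and -1.21) fell. Of 25 genes of small RNA silencing 9 rose and 3 fell, and 4 rises and 2 falls held. DCP2, a decapping enzyme, read 0.74 and 1.45, CNOT6 0.69 and 0.90, DGCR8 0.52 and 0.79, and AGO2, the slicing Argonaute, -0.45 and -0.63, with 0.05 at its other probe. Of 36 HOX genes 4 rose (11.1%) and 10 fell (27.8%), against 15.3% and 18.6% of all features. Of these genes 34 were well above background in control RNA on both arrays, so the 16078 bright features above are the nearer reference. HOXA9 (0.53 and 0.98) and HOXA5 (-0.64 and -1.01) held.

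Cell type markers were read in control RNA. All 15 measured markers of HEK293 cells were well above background in control RNA on both arrays, among them VIM, CDH2, NEFM, NEFL, INA, PAX2, LHX1, KRT8 and KRT18; 4 fell and none rose, and TBX2 held (mean -1.19). Of 22 blood cell markers 12 were well above background in control RNA on both arrays; 2 rose and 6 fell, and CD4 held with a mean of -1.70, against -1.82 on UNC0638 replicate 3. Of the blood markers PTPRC was not well above background in G9a siRNA RNA on either array. Of 10 liver and endothelial markers 3 were well above background, and PECAM1 and VWF were not in either RNA on either array; APOA1 was not well above background in G9a siRNA RNA on either array and was at least 1.39-fold lower (measured mean -0.76, adjusted p = 0.0072, limma), a bound open to dye bias. Of 21 epithelial genes 2 rose and 7 fell, with EPCAM held at 0.90 and 1.10. Of 22 mesenchymal genes 3 rose and 3 fell, with SNAI2 (1.14 and 1.63) and ZEB2 (0.71 and 0.74) held. Of 24 housekeeping genes 5 rose and 4 fell, and VPS29 held with -0.80 and -1.15, against -0.90 on UNC0638 replicate 3.

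**Figure D4:**
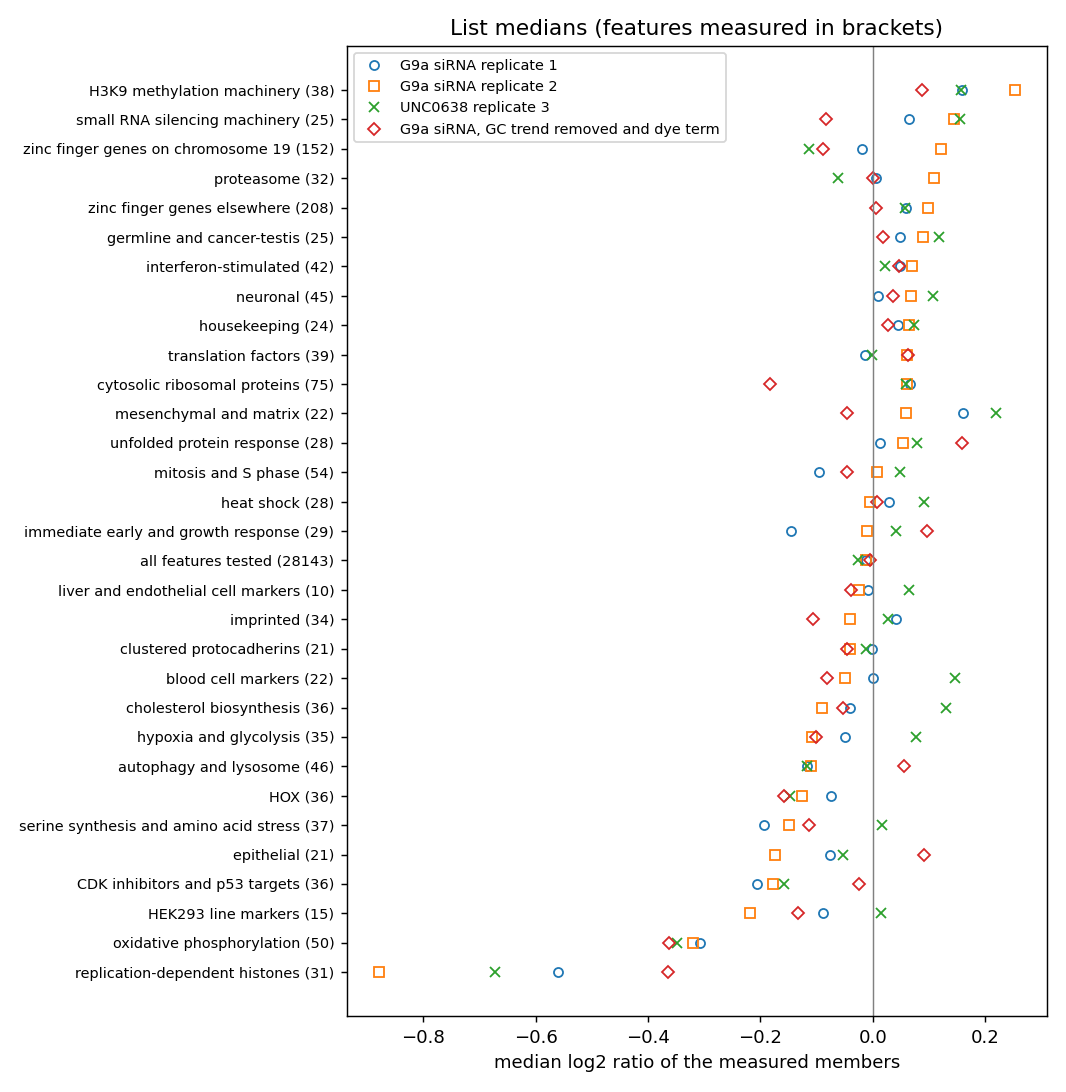
Median log2 ratio (horizontal axis) of the measured members of 30 gene lists and of all features tested (vertical axis), on G9a siRNA replicates 1 and 2 (circles, squares), on UNC0638 replicate 3 (crosses), and as the median of the means with GC trend removed and a dye term (diamonds). Histone genes (-0.56 and -0.88) and oxidative phosphorylation (-0.31 and -0.32) lie lowest, beside -0.67 and -0.35 on UNC0638 replicate 3, and all features tested lie at -0.01.

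The comparison with UNC0638 asks whether lowering EHMT2 RNA and blocking the enzyme change the same RNAs; no protein was measured here. Directly, 1761 features were higher (6.26%) and 1914 lower (6.8%) under G9a siRNA than under UNC0638 by limma. EHMT2 differed by -1.49 (SE 0.16, adjusted p = 0.011). The count rested on the replicates compared: with UNC0638 replicates 3 to 5 alone, which share the array set and dye orientation of G9a siRNA, limma called no feature, with 4585 at an unadjusted p under 0.05, and without replicate 3 it called 8055. The times differ as well (72 h and 48 h).

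Without replicate 3, UNC0638 changed 877 features (3.12%), 427 up (1.52%) and 450 down (1.6%), and these were read under G9a siRNA. Of its 427 rises, 137 (32.1%) rose under G9a siRNA, against 15.3% of all features, and 15 (3.51%) fell. These 137 are 3.17% of the G9a siRNA rises. Of its 450 falls, 162 (36.0%) fell under G9a siRNA, against 18.6% of all features, and 48 (10.7%) rose. These 162 are 3.09% of the G9a siRNA falls. UNC0638 replicates 4 and 5 are among the replicates used. Both have treated RNA in Cy5 alone and lie in the array set of the G9a siRNA arrays, and replicate 4 correlates with those arrays. The part of these replicates, of dye and of array set in the overlap was not tested. Brightness was not matched between these features and all features. The 4 fits that define held features leave the replicate 3 pattern in place. In them 42 of 303 such rises with a sequence held under G9a siRNA (13.9%, against 8.74% of all features with a sequence), and 1 held as a fall. Of 235 such falls with a sequence 38 held (16.2%, against 6.77%), and 2 held as rises. The rises included EGR1, IFIH1, ANKRD7, FGFBP1, ANXA1 and SP110. FGFBP1, a carrier of fibroblast growth factors, read 0.92 and 0.87 under G9a siRNA, 0.94 as the UNC0638 mean without replicate 3 and 0.64 under WIZ siRNA. ANXA1, annexin A1, read 0.62 and 0.96, against 0.67 and 0.73, and SP110, an interferon-induced nuclear body protein, 0.56 and 0.86, against 0.85 and -0.34. The falls included ZSCAN18, NAT8L, ZNF71, GPER1, ZNF585A and ICAM5. ZSCAN18 had -0.82 as the G9a siRNA mean, -1.22 under UNC0638 and -0.80 under WIZ siRNA, and ICAM5, an adhesion molecule of neurons, -0.83, -0.51 and 0.04. These 12 genes were named after their values were seen, among those called in all 6 fits, 2 of which add a share of UNC0638 replicates 1, 2 and 5 to the G9a siRNA arrays, so their shared direction is a description.

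The comparison with WIZ siRNA sets 2 knockdowns of partners side by side at 72 h. By limma 5736 features (20.4%) differed, 2569 higher (9.13%) and 3167 lower (11.3%) under G9a siRNA. EHMT2 differed by -1.97 (SE 0.19, adjusted p = 0.0054) and WIZ by 2.20 (SE 0.26, adjusted p = 0.0070), each lower under its own siRNA. Each treatment lies in an array set of its own, so set and treatment cannot be told apart, except through UNC0638, which spans both. With the set as a covariate 2 features differed, and without the second G9a siRNA array 1 did.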

How the data were processed

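Treated and control total RNA were hybridised together to each of 13 Agilent 8x60K 2-colour arrays. The deposited spot and background intensity values were uncorrected pixel brightness per channel, per the file headers. The deposited log2 ratio of the channels and the table of log10 ratios were made by the authors and served as alternatives. The log10 table runs as control over treated on 8 arrays (r with the array files -0.89 to -0.93) and treated over control on 5 (0.94 to 0.98), and was turned accordingly. Its column medians lay between -0.01 and 0.0082; the sources used here do not give how it was centred.

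Background was corrected by normexp (offset 50) and dye bias by loess within arrays (limma 3.58.1, R 4.3.3), with control spots at weight 0. Spots of 1 probe were averaged, and all arrays turned to treated over control. Probes more than 2.6 background SDs above background on at least 50% of the arrays of 1 RNA group were kept (34143), and the brightest per gene was tested. The 9 replicates entered 1 fit with a mean per treatment, 6 residual and 3.37 prior degrees of freedom; the dye term used single arrays with the replicate as a block, whose estimated correlation was -0.11. Symbols came from RefSeq (GRCh38.p14 table) for 25766 of 42405 probes by accession and 1944 by symbol, and 18553 probes have a sequence. The script was tested on simulated data. The alternatives tried are in the closing section.

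Median brightness of the 2 G9a siRNA arrays was 204 and 201 in Cy3 and 197 and 151 in Cy5, over backgrounds of 29 and of 45 to 47; 47.6% to 49.8% of probes were well above background in treated and 57.6% to 57.8% in control RNA. Precision is limited by how few arrays there are. Named genes were EHMT2, EHMT1 and WIZ, the 15 largest held rises and falls of features with 1 symbol, ranked by the smallest absolute mean over the 4 fits, up to 4 held members of each list (or else its largest mean), and the 3 genes of at least 3 probes with the widest spread; the genes of the 6 fits, of probes that agree and of the overlap with UNC0638 were chosen after their values were seen. One gene that the rule names is not reported here. The arrays, lists and rules were chosen with earlier results of these data known. Replicate numbers were not treated as pairs: differences between replicates 1 and 2 correlated between groups by 0.0044, 0.11 and -0.03.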

Additional observations from a re-analysis of the deposited data

How the results depend on the processing

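G9a siRNA changed 9556 features in the fit reported. The count was 4453 with a dye term, 6177 with the GC trend removed and 2913 with both (both of 13458 features), 4248 by the authors' log10 table (of 8800), 0 with the array set as a covariate, 1008 with the replicate 3 pattern, GC trend and dye taken into account (608 up, 400 down), and from 0 to 10938 leaving out 1 G9a siRNA replicate or UNC0638 replicate 3 (6040 without the first G9a siRNA array, 10938 without UNC0638 replicate 3). Median centring in place of loess gave 2872 up and 6545 down, against 4315 and 5241. EHMT2 lay below 0 in each; its adjusted p by limma was 0.21 with the array set as a covariate (-1.42) and 0.10 without the second array, and its mean lay between -1.65 and -1.67 leaving out either array. Held features numbered 2087, 527 with the pattern removed as well, and from 0 to 2805 leaving out 1 G9a siRNA replicate (0 and 1044) or UNC0638 replicate 3 (2805).

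The count that differs from UNC0638 was 3675. It was 2248 with the dye effect subtracted, 1904 with GC trend removed and dye term, 1676 by the authors' log2 ratio, 1956 by their log10 table, 725 with the array set as a covariate, 0 with UNC0638 replicates 3 to 5 alone, and from 0 to 8055 leaving out 1 replicate. The count that differs from WIZ siRNA was 5736. It was 3357 with the dye effect subtracted, 2654 with GC trend removed and dye term, 3581 by the authors' log2 ratio, 2727 by their log10 table, 2 with the array set as a covariate, and from 1 to 8196 leaving out 1 replicate (1 and 3818 without a G9a siRNA array, 8196 without UNC0638 replicate 3). With the replicate number as a block, G9a siRNA changed 13585 features, and 10536 differed from UNC0638 and 11204 from WIZ siRNA, on 2 residual degrees of freedom; the numbers are no pairing here. The gap between the GC classes of 55% to 60% and 35% to 40%, -0.64, was -0.89 by the authors' log2 ratio. Where not named above, the cause of a change was not tested.

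Of the genes named by rule or afterwards, those that changed sign did so as follows. With the replicate 3 pattern removed, EHMT1 had -0.17, WIZ -0.30, RPL37A 0.37, RPS3 0.026, ATP5PF 0.13, H4C5 0.44, H2AC17 0.034 and VPS29 0.020; with GC trend and dye as well, EHMT1 had -0.26, WIZ -0.37 and RPS3 0.039. EHMT1 had -0.11 with the array set as a covariate. WIZ had -0.22 with the GC trend removed, -0.21 with dye term too, -0.071 with the dye effect subtracted and -0.013 with the dye term. The array set as a covariate ended the call of all 144 other named genes that were called, leaving out the second G9a siRNA array also of 144, and leaving out the first of 17. Removing the replicate 3 pattern ended the call of 24 and turned the sign of 8 named genes, and with GC trend and dye as well of 65 and 3. Of 28143 tested features 13458 have a probe sequence, so held features describe those alone.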
